A study of Mus musculus with 34 samples.

Results

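Lung RNA of female C57BL/6 mice (C57BL/6J in the study's methods) in diestrus was compared between mice exposed to ozone (O3) and mice exposed to filtered air (FA), which comprised 7 of the 34 mice of the series. Members were chosen by the exposure and the stage of the estrous cycle given in the labels: 3 mice had been exposed to O3 at 2 ppm for 3 h in diestrus, and 4 mice had received FA for 3 h in diestrus. All mice were 8 weeks old, and per the study's methods the lungs were collected 4 h after the exposure. Per the same methods, the stage was read from vaginal smears and checked by serum estradiol, progesterone and luteinizing hormone. RNA of whole lung homogenate was run on a real-time PCR array of 84 genes of inflammation and immunity, 1 array per mouse. The other 27 mice were in metestrus (3 O3, 4 FA), proestrus (5 O3, 6 FA) or estrus (3 O3, 6 FA). A whole lung homogenate mixes epithelial, stromal and immune cells, so fewer cells of a type and less RNA per cell cannot be told apart.

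Ozone is an oxidant gas that damages the airway epithelium, and injured epithelial cells and macrophages release chemokines and cytokines that draw neutrophils and monocytes from the blood. CXC chemokines such as Cxcl1, Cxcl2 and Cxcl5 bind the receptor Cxcr2 of neutrophils, Ccl2 and Ccl7 bind Ccr2 of inflammatory monocytes, and Il6 drives the acute phase response. Diestrus and metestrus make up the luteal phase of the mouse cycle, in which the corpora lutea secrete progesterone.

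The deposited measurement is the threshold cycle (Ct) of each well, the PCR cycle at which its signal passes a set level, so that a lower Ct stands for more RNA. Expression is given as -ΔCt: the Ct of the gene was subtracted from the mean of H1, H2, H3 and H5, the reference wells, in the same mouse. It is on a log2 scale, in which a rise of 1 is a doubling where amplification is complete, and levels are not compared between genes. Where a well had no Ct, 40 was used in its place. The files name wells by plate position only. Here 20 wells carry a gene name: 17 through values that the study prints, each of which was found in 1 well only, and Ccl19, Ccr2 and Cxcl3 less firmly, through the colors of a heatmap. The other 64 wells have no name here. None of the placed genes defines lung cells, so the labelled tissue could not be checked against its markers.

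In the 7 diestrus mice, the Ct of array wells ranged from 21.26 to 38.70, 58 of 588 values (9.86%) had no Ct, and all 7 mice had a Ct in 61 of the 84 wells. The reference wells averaged a Ct of 20.97 ± 1.21 (SD, n = 4) in FA and 21.33 ± 1.05 (SD, n = 3) in O3 mice. Some of the FA mice differed in ways that the labels do not give. First, FA replicate 2 stood apart in wells H7 to H12 of the control row, whose content the files do not name: its Ct was 26.38, 26.42, 27.38, 30.41, 29.10 and 23.08, whereas the other 6 diestrus mice ranged from 19.20 to 22.13 over these wells. It was higher than each of the 33 other mice of the series in 5 of these 6 wells. Second, FA replicates 1 and 2 have Ct values with 7 decimals, whereas FA replicates 3 and 4 and the 3 O3 mice have 3 decimals. Each result below was therefore also computed without FA replicate 2 and within the mice with 3 decimals, in which 3 O3 mice were compared with 2 FA mice. What the number format stands for was not tested. Among the O3 mice, replicate 2 stood apart in its reference wells. Their Ct spread over 5.95 cycles, against 3.76 and 4.33 in O3 replicates 1 and 3 and 5.72 in FA replicate 2. They averaged 22.43 in O3 replicate 2, against 20.34 and 21.21 in O3 replicates 1 and 3 and 22.42 in FA replicate 2.

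**Figure D1:**
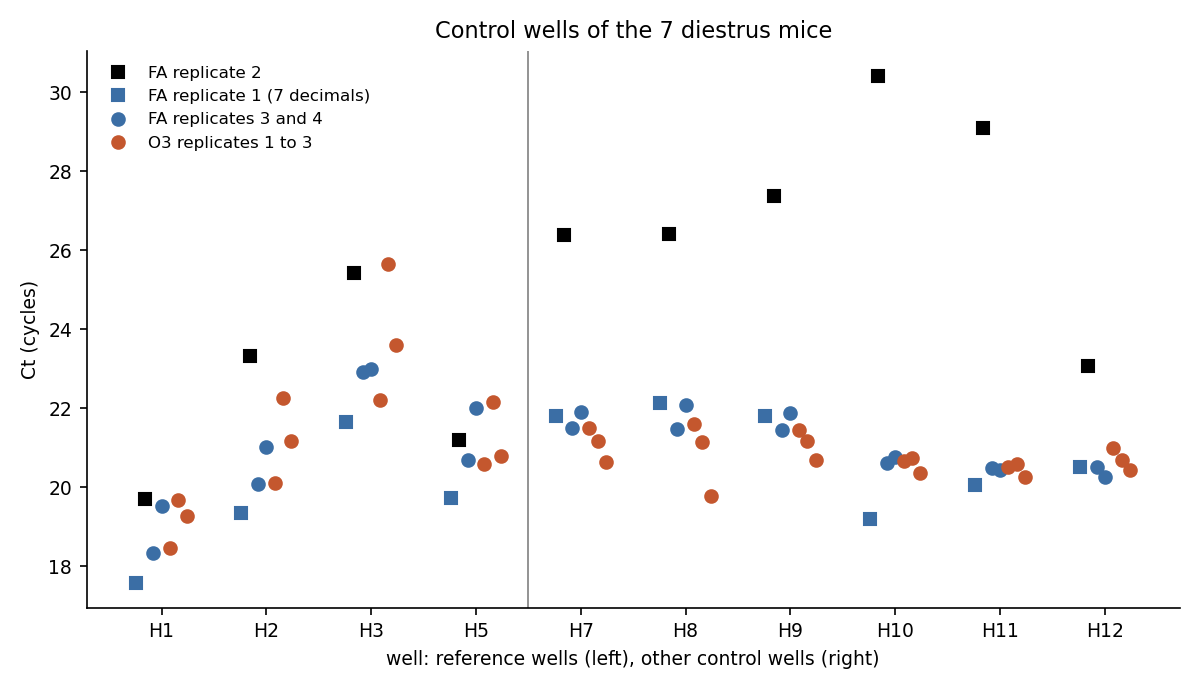
Ct (cycles) of the reference wells H1, H2, H3 and H5 and of wells H7 to H12 in each of the 7 diestrus mice, with FA mice in blue or black and O3 mice in orange, and squares for the mice with 7 decimals. FA replicate 2 (black squares) lies between 23.08 and 30.41 in wells H7 to H12, above the other 6 mice.

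The comparison of O3 with FA in diestrus asks which inflammatory genes ozone changes in this stage. Ccl20, Il6, Cxcl2 and Ccl17 rose, and Ccr2 and Nos2 fell, whereas the remaining 14 placed genes did not pass the test. These 6 genes are among 10 of 84 wells (11.9%) past a false discovery rate of 0.05 in limma's moderated test, fitted to all 34 mice in 8 groups of exposure and stage with Benjamini-Hochberg adjustment over the 84 wells. Of the 10 wells, 5 were higher (5.95%) and 5 were lower (5.95%) in O3 mice, and an unadjusted p under 0.05 was found in 19. The median log2 fold change was 0.65 over the 20 placed genes and 0.00 over the 84 wells, with 16 of 20 and 42 of 84 values above 0. In a limma fit of the 7 diestrus mice alone, 0 wells passed and 14 had an unadjusted p under 0.05, and within the mice with 3 decimals 3 wells passed (Ccl17, Ccl20 and Cxcl5). With reference well H2 alone, 2 wells passed (Ccl20 and Il6). Leaving out 1 diestrus mouse at a time gave 6 to 18 wells, the highest number without FA replicate 3 and the lowest without O3 replicate 2.

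Ccl20 is the chemokine of airway epithelium that attracts Ccr6-bearing dendritic cells and lymphocytes. Its -ΔCt was -11.11 in FA replicates 1 and 2, with no Ct in FA replicates 3 and 4, and -7.41, -10.38 and -6.02 in O3 replicates 1, 2 and 3. Every O3 mouse was above every FA mouse, and the 2 FA mice with a Ct are those with 7 decimals. The log2 fold change was 7.14 ± 1.772 (SE, 95% interval 3.52 to 10.77; adjusted p = 0.0101 in limma). Its size depends on the Ct given to wells with no Ct: it was 3.17 (adjusted p = 0.0304 in limma) with those wells left missing. That fit set O3 mice with 3 decimals against FA mice with 7 decimals only, so exposure and number format cannot be told apart in it. Without FA replicate 2 it was 8.47, and within the mice with 3 decimals it was 11.12 (adjusted p = 0.00166 in limma).

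Il6, the cytokine that induces acute phase proteins, had a Ct in FA replicate 1 (-ΔCt of -13.78) and FA replicate 4 (-14.17) and none in FA replicates 2 and 3. In O3 replicates 1, 2 and 3 it was -10.31, -10.57 and -10.02. The 3 O3 mice lay close together and above all 4 FA mice. Il6 thus rose by 5.96 ± 1.54 on the log2 scale (SE, 95% interval 2.80 to 9.11), with an adjusted p of 0.0101 in limma. It was 3.68 (adjusted p = 0.0236 in limma) with wells that had no Ct left missing. Within the mice with 3 decimals it was 6.53 with an adjusted p of 0.0611 in limma, which did not pass.

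Cxcl2, a chemokine that macrophages release and that attracts neutrophils through Cxcr2, had -ΔCt values of -11.42, -7.99, -9.22 and -9.83 in FA replicates 1 to 4. In O3 replicates 1 to 3 it was -8.55, -6.51 and -6.47. The groups overlapped: O3 replicate 1 lay below FA replicate 2, and the other O3 mice lay above all FA mice. Cxcl2 rose by 2.44 ± 0.80 on the log2 scale (SE), a 5.43-fold difference, with an adjusted p of 0.0414 in limma. Leaving out 1 mouse at a time gave 1.84 to 3.13, with adjusted p from 0.0178 to 0.241 in limma, and the call was lost without FA replicate 1 or 4 or O3 replicate 2 or 3. It was also lost within the mice with 3 decimals (2.35, adjusted p = 0.0611 in limma).

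Ccl17, a ligand of Ccr4 on type 2 helper cells, had -ΔCt values of -5.34, -3.81, -5.71 and -5.53 in FA replicates 1 to 4. In O3 replicates 1 to 3 it was -4.20, -2.94 and -3.31. The groups overlapped only through FA replicate 2, which lay above O3 replicate 1. Ccl17 rose by 1.61 ± 0.47 on the log2 scale (SE), a 3.06-fold difference, with an adjusted p of 0.0229 in limma. Without FA replicate 2 it was 2.04 (adjusted p = 0.00294 in limma) and within the mice with 3 decimals 2.14 (adjusted p = 0.00603 in limma). The call was lost without FA replicate 1 or 4 or O3 replicate 2 or 3, with adjusted p up to 0.184 in limma.

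Ccr2 is the receptor that brings Ly6C-high monocytes to inflamed tissue. Its -ΔCt was -4.30, -6.78, -7.40 and -6.69 in FA replicates 1 to 4 and -7.97, -10.16 and -9.20 in O3 replicates 1 to 3. All O3 mice lay below all FA mice. Ccr2 had a log2 fold change of -2.817 ± 0.60 (SE), which is 7.05-fold lower in O3 mice, with an adjusted p of 0.00507 in limma. The call held in each fit that left out 1 diestrus mouse, with log2 fold changes of -3.39 to -2.15. Within the mice with 3 decimals it was -2.06, with an adjusted p of 0.0611 in limma. Cd14, the other monocyte marker of the array that could be placed, had a log2 fold change of 0.05 ± 0.60 (SE), and the part of monocyte number in the change of Ccr2 was not tested.

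Nos2, the inducible nitric oxide synthase, had -ΔCt values of -9.88, -8.54, -9.13 and -9.80 in FA replicates 1 to 4. It was -10.22 in O3 replicate 1 and -10.71 in O3 replicate 3, and it had no Ct in O3 replicate 2. Both O3 mice with a Ct lay below all FA mice. Nos2 had a log2 fold change of -3.50 ± 0.96 (SE), with an adjusted p of 0.0144 in limma. It rests on the well with no Ct: without O3 replicate 2 it was -1.13 with an adjusted p of 0.263 in limma. With that well left missing the adjusted p was 0.189.

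**Figure D2:**
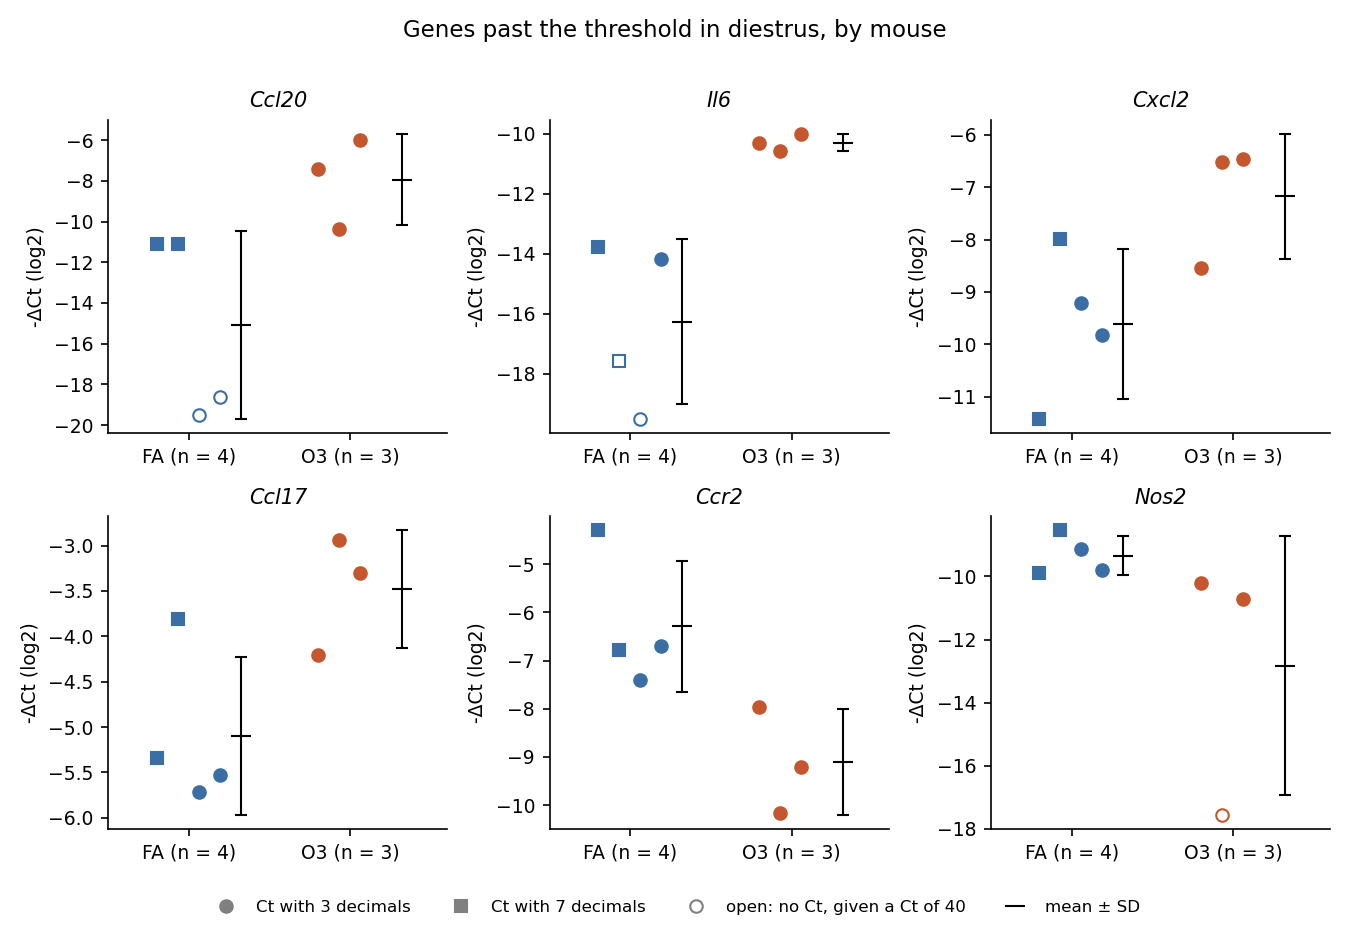
-ΔCt (log2 scale) of the 6 genes past the threshold in each diestrus mouse, FA in blue and O3 in orange, with bars for mean ± SD, squares for the mice with 7 decimals and open symbols for wells with no Ct. The O3 mice lie above all FA mice for Ccl20 and Il6 and below all FA mice for Ccr2 and Nos2, and the groups overlap for Cxcl2 and Ccl17.

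The promoters of the 4 genes that rose are shown because these genes moved in the same direction. The NF-κB consensus, which is bound by the factor that Myd88 signalling activates, and the AP-1 motif TGANTCA were searched for on both strands in the 250 bases before the start of each gene in RefSeq's GRCm38.p6. Capitals mark matches to either motif. Ccl20 lies at chr1:83116516-83116765, Il6 at chr5:30012864-30013113, Cxcl2 at chr5:90903649-90903898 and Ccl17 at chr8:94810203-94810452, all on the + strand.
Ccl20: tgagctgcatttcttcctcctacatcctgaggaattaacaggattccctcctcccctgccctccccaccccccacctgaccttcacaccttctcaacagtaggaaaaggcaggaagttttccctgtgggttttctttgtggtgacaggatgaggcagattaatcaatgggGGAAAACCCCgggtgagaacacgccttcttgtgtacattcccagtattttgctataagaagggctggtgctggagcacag
Il6: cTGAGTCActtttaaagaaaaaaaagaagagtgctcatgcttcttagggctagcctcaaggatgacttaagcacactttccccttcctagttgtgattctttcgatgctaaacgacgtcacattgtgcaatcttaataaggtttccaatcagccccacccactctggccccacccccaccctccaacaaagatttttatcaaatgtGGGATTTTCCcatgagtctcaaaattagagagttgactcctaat
Cxcl2: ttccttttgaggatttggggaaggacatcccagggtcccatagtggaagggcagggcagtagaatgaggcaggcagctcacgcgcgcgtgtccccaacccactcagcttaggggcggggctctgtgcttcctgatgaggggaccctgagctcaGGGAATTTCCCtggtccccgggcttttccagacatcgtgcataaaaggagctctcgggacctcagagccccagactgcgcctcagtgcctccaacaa
Ccl17: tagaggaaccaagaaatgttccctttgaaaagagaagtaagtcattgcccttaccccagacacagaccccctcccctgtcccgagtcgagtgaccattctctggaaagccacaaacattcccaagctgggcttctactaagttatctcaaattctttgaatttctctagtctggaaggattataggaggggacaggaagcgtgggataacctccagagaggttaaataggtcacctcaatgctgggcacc

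Ccl20 held 1 match to the NF-κB consensus, beginning at -80 from the gene's start, and Il6 held 1 at -44 and an AP-1 match at -249. Cxcl2 held 2 NF-κB matches that overlap, and Ccl17 held neither motif in this window. The promoter of Ccr2, which fell, held neither motif. Of the 20 placed genes, 14 had a promoter in the RefSeq table, 9 of them with an NF-κB match and 2 with an AP-1 match. Il1r1, Cxcl3, Cxcl1, Cxcl10, Fos and Ltb, which did not pass in diestrus, also held an NF-κB match. The match was thus not particular to the genes that rose. Of the 32851 promoters of the table, 7.25% and 6.75% held these motifs. These shares are per promoter, whereas a placed gene was counted if any of its promoters matched, and the array holds inflammatory genes. A match is a description of the letters and does not show binding in these lungs. Ccl2, Ccl7, Ccl11, Cd14, Cxcl5 and Nos2 were not matched.

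Among the neutrophil-attracting CXC chemokines, 1 of 4 rose (Cxcl2), against 5 of the 84 wells (5.95%), and all 4 had a log2 fold change above 0 (median 2.63), against 42 of the 84 wells (median 0.00). Cxcl5, which airway epithelium makes, had a -ΔCt of -13.83 in FA replicate 1 and -17.83 in FA replicate 3, with no Ct in FA replicates 2 and 4, and -14.25, -12.92 and -13.97 in O3 replicates 1 to 3. The 3 O3 mice were close to FA replicate 1 and above the other FA mice. Its log2 fold change of 3.25 ± 1.85 (SE) had an adjusted p of 0.257 in limma, against 4.51 with an adjusted p of 0.00166 within the mice with 3 decimals. Most of these Ct values lay near the limit of detection, from 33.41 to 38.35, and with all Ct over 35 set to 35 the log2 fold change was 0.10.

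Cxcl1, the mouse counterpart of the human GRO chemokines, had -ΔCt values of -13.05, -15.60 and -12.01 in FA replicates 1, 3 and 4 and no Ct in FA replicate 2. It was -12.61 in O3 replicate 1 and -11.65 in O3 replicate 3, with no Ct in O3 replicate 2. The log2 fold change was 0.62 ± 1.35 (SE, 95% interval -2.14 to 3.38), with an adjusted p of 0.851 in limma, and it turned to -0.39 without FA replicate 2. Cxcl3, also a ligand of Cxcr2, had a log2 fold change of 2.81 ± 1.57 (SE, adjusted p = 0.257 in limma), and it had no Ct in FA replicate 4. It was 1.45 without that mouse or with that well left missing. Its 2 highest mice were O3 replicates 1 and 2 at -11.13 and -10.28, and O3 replicate 3 (-13.80) lay below FA replicates 1 and 2.

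Of the monocyte chemokines and their receptor, 1 of 3 fell, which is the receptor Ccr2, against 5 of the 84 wells (5.95%). Ccl2, the main ligand of Ccr2, had -ΔCt values of -9.92, -9.06, -11.46 and -9.45 in FA replicates 1 to 4 and -9.77, -8.95 and -9.59 in O3 replicates 1 to 3. The groups overlapped, with a log2 fold change of 0.53 ± 0.60 (SE, 95% interval -0.69 to 1.76). Ccl7, another ligand of Ccr2, had a log2 fold change of -0.07 ± 0.66 (SE, 95% interval -1.42 to 1.28), which turned to 0.15 with reference well H3 alone and to 0.07 with the mean Ct of the array wells as the reference. Adjusted p in limma was 0.694 for Ccl2 and 0.9702 for Ccl7.

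Of the other CC chemokines, 2 of 4 rose (Ccl17 and Ccl20), against 5 of the 84 wells (5.95%). Ccl11, the eotaxin that attracts eosinophils, had -ΔCt values of -7.74 and -6.24 in FA replicates 1 and 2 and -10.18 and -9.75 in FA replicates 3 and 4. The 3 O3 mice, at -8.47, -8.36 and -8.12, lay between the FA mice with 7 decimals and those with 3 decimals. The log2 fold change was 0.16 ± 0.86 (SE, adjusted p = 0.961 in limma) over all mice and 1.65 (adjusted p = 0.126 in limma) within the mice with 3 decimals. Ccl19, a chemokine of lymphoid stroma, had a log2 fold change of 0.81 ± 0.70 (SE, adjusted p = 0.549 in limma). With the number of decimals as a term in the fit it was 1.62 and passed (adjusted p = 0.0312 in limma). It was 1.45 without FA replicate 2 (adjusted p = 0.158 in limma) and 1.71 within the mice with 3 decimals.

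Of the genes of sensing and signalling, 0 of 3 passed. Myd88, the adaptor of Toll-like and interleukin 1 receptors, had -ΔCt values of -6.95, -6.91, -5.28 and -6.11 in FA replicates 1 to 4 and -5.22, -4.22 and -4.35 in O3 replicates 1 to 3. All O3 mice lay above all FA mice, O3 replicate 1 by little. The log2 fold change was 1.72 ± 0.65 (SE), with an adjusted p of 0.0755 in limma, and it passed without FA replicate 3 (adjusted p = 0.0423 in limma). Without FA replicate 2 it was 1.52 (adjusted p = 0.158 in limma), and within the mice with 3 decimals it was 1.10. The lowest FA mice, replicates 1 and 2, are those with 7 decimals. Cd14, the co-receptor for lipopolysaccharide, ranged from -6.26 to -3.66 in FA and from -6.26 to -4.17 in O3 mice. Its log2 fold change of 0.05 turned to -0.08 with reference well H2 alone and to -0.05 with H5 alone. Il1r1, the receptor of interleukin 1, had a log2 fold change of 0.42 ± 0.40 (SE, adjusted p = 0.605 in limma).

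Ptgs2, the cyclooxygenase that is induced in inflammation, had -ΔCt values of -7.05, -6.45, -6.92 and -6.42 in FA replicates 1 to 4 and -5.78, -6.69 and -4.60 in O3 replicates 1 to 3. O3 replicate 2 lay among the FA mice and the other O3 mice lay above them. Its log2 fold change was 1.02 ± 0.55 (SE, 95% interval -0.10 to 2.14), with an adjusted p of 0.253 in limma. With the number of decimals as a term in the fit it was 1.53 and passed (adjusted p = 0.0471 in limma). It was 1.11 without FA replicate 2 (adjusted p = 0.227 in limma) and 0.98 within the mice with 3 decimals. Cxcl10, the interferon-inducible chemokine, had a log2 fold change of 0.67 ± 0.68 (SE, adjusted p = 0.625 in limma), and Fos, an immediate early subunit of AP-1, had 0.40 ± 0.53 (SE, adjusted p = 0.772 in limma). Ltb, a membrane lymphotoxin of lymphoid cells, had -0.09 ± 0.49 (SE, adjusted p = 0.961 in limma), which turned to 0.13 with reference well H3 alone and to 0.05 with the mean Ct of the array wells as the reference. The lymphoid markers Ltb and Ccl19 both had overlapping groups.

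**Figure D3:**
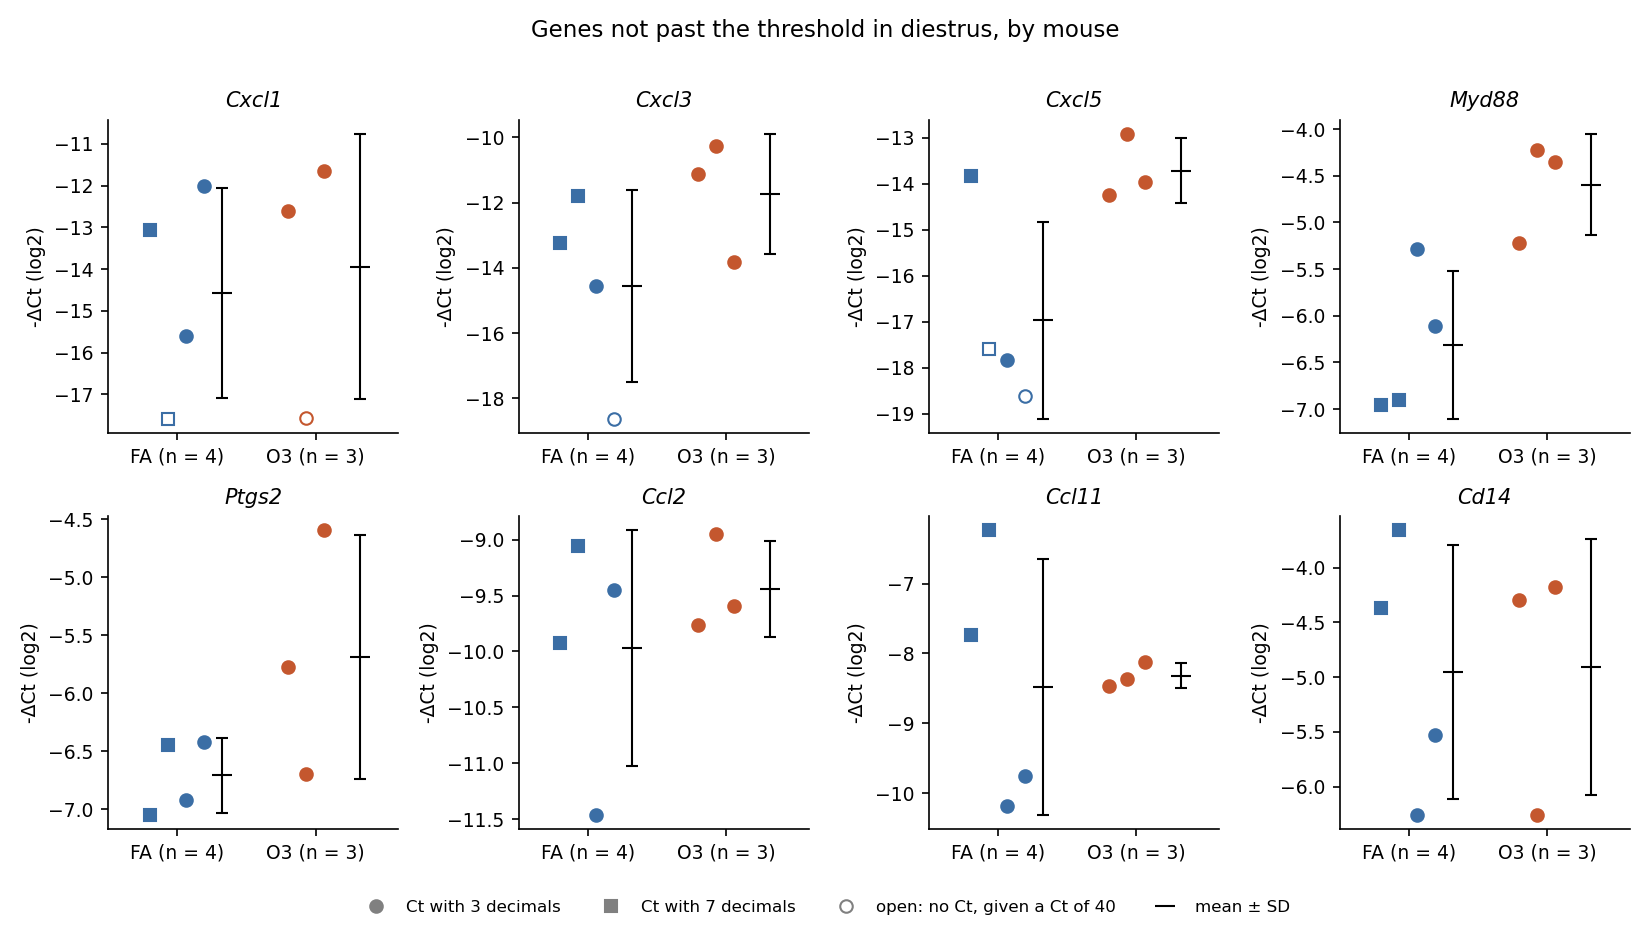
-ΔCt (log2 scale) of 8 genes not past the threshold in each diestrus mouse, FA in blue and O3 in orange, with bars for mean ± SD, squares for the mice with 7 decimals and open symbols for wells with no Ct. The groups overlap for 7 of the 8 genes, and for Myd88 the 3 O3 mice lie above all FA mice.

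**Figure D4:**
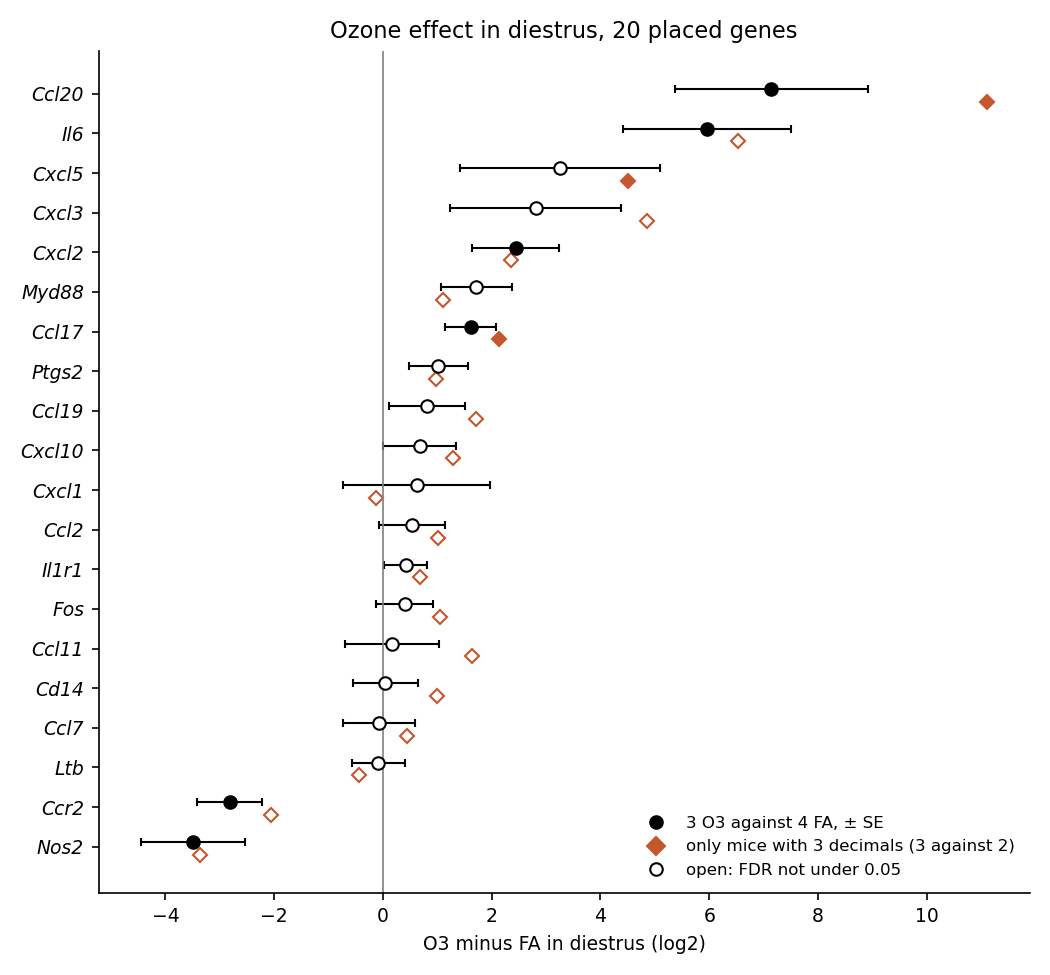
Log2 fold change of O3 against FA in diestrus for the 20 placed genes (black circles ± SE, 3 O3 against 4 FA mice) and within the mice with 3 decimals (orange diamonds, 3 against 2), with open symbols where the false discovery rate was not under 0.05. Over all mice, values range from -3.50 for Nos2 to 7.14 for Ccl20, and within the mice with 3 decimals Ccl20 reaches 11.12, with Ccl17, Ccl20 and Cxcl5 past the threshold.

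Over all 84 wells, the groups did not overlap in 13 (15.5%), with O3 mice above in 5 (5.95%) and below in 8 (9.52%). Among the placed genes this held for 3 of 20 above (Ccl20, Il6 and Myd88) and 2 of 20 below (Ccr2 and Nos2). For each of these genes alone, the exact permutation test of 3 against 4 mice gave a two-sided p of 0.0571, the smallest that its 35 splits allow, so that test cannot reach 0.05. Of the wells with no name, 1 rose and 3 fell. Well E7 rose by 1.45 on the log2 scale (SE 0.44, adjusted p = 0.0275 in limma), from -11.48 to -10.75 in FA and from -10.09 to -8.58 in O3 mice, and its call was lost without O3 replicate 2 or FA replicate 4. Well E1 had -ΔCt values of -6.87, -6.11, -8.03 and -5.62 in FA replicates 1 to 4 and -9.31, -10.19 and -8.25 in O3 replicates 1 to 3. Its log2 fold change was -2.60 ± 0.58 (SE, adjusted p = 0.00512 in limma). Well A7 ranged from -11.55 to -6.25 in FA and from -13.02 to -12.12 in O3 mice, with a log2 fold change of -3.48 ± 0.89 (SE, adjusted p = 0.0101 in limma), which was -1.74 within the mice with 3 decimals.

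The effect of O3 in diestrus was then set against its effect in the other stages, which the label of each mouse also gives. The number of wells past the threshold was 6 in metestrus, all higher (7.14%), 12 in proestrus (14.3%), with 10 higher (11.9%) and 2 lower (2.38%), and 12 in estrus, all higher (14.3%), against 10 in diestrus. In limma's test of the difference itself, diestrus against metestrus gave 0 wells (2 with an unadjusted p under 0.05), diestrus against estrus gave 0 (14 with an unadjusted p under 0.05), and diestrus against proestrus gave 1 (1.19%), well E1. Against the mean of the 3 other stages, 1 well passed (1.19%), again E1, and no placed gene passed. With the replicate number as a block, 0 wells passed against proestrus or against the mean of the other stages (adjusted p = 0.0537 in limma for E1 in the latter). The difference was below 0 in 16 of 20 placed genes (median -1.34) and in 61 of 84 wells (72.6%, median -0.61). No placed gene was thus shown to respond differently in diestrus.

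The genes that rose in diestrus had log2 fold changes above 0 in each of the 4 stages. Ccl20 had a log2 fold change of 7.14 in diestrus, 6.75 in metestrus, 6.99 in proestrus and 8.49 in estrus, and the difference between diestrus and the mean of the others was -0.26 (95% interval -4.36 to 3.834). This difference turned to 3.51 within the mice with 3 decimals, where Ccl20 had no Ct in either FA diestrus mouse. In the other stages, the O3 mice with 3 decimals are 3 in metestrus, 2 in proestrus and 1 in estrus. Each stage difference within this subset therefore rests partly on 1 O3 estrus mouse. Il6 had 5.96 in diestrus against 7.67, 7.87 and 6.76 in metestrus, proestrus and estrus, with a difference of -1.48 (95% interval -5.05 to 2.09). Cxcl2 had 2.44 in diestrus against 3.22, 3.06 and 2.99, with a difference of -0.65 (95% interval -2.50 to 1.20). Ccl17 had 1.61 against 1.58, 0.68 and 1.90, with a difference of 0.23 (95% interval -0.86 to 1.32). Within the mice with 3 decimals the differences of Il6, Cxcl2 and Ccl17 were -0.62, -0.47 and 1.0035. The intervals of Ccl20 and Il6 are wide, so equal effects were not shown either.

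Other genes had values near 0 in diestrus beside higher values in the other stages. Ccl11 had a log2 fold change of 0.16 in diestrus, 1.89 in metestrus, 3.19 in proestrus and 3.31 in estrus. Its difference from the mean of the other stages was -2.64 (95% interval -4.63 to -0.64, adjusted p = 0.239 in limma), and -0.84 within the mice with 3 decimals. Cd14 had 0.05 in diestrus against 1.34, 1.63 and 2.21, with a difference of -1.68 (95% interval -3.06 to -0.29, adjusted p = 0.323 in limma), and -0.35 within the mice with 3 decimals. These differences were thus smaller within 1 number format than over all mice, and neither passed over all mice. The values within 1 number format rest partly on 1 O3 estrus mouse.

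Ptgs2 had a log2 fold change of 1.02 in diestrus against 2.29, 2.50 and 2.59 in metestrus, proestrus and estrus, with a difference of -1.44 (95% interval -2.70 to -0.175, adjusted p = 0.348 in limma), and -1.42 within the mice with 3 decimals. Cxcl5 had 3.25 against 4.77, 6.95 and 8.14, with a difference of -3.36 (95% interval -7.63 to 0.90, adjusted p = 0.430 in limma). Cxcl1 had 0.62 against 3.13, 4.43 and 3.71, with a difference of -3.14 (95% interval -6.25 to -0.02, adjusted p = 0.348 in limma). That difference was -4.28 to -1.32 when 1 diestrus mouse was left out. Cxcl1 had no Ct in FA replicate 2 and O3 replicate 2, and its diestrus value was 2.43 without O3 replicate 2. Ccr2 fell by 2.817 on the log2 scale in diestrus, and its values of -1.79, -1.24 and -1.16 in the other stages did not pass, with a difference of -1.42 (95% interval -2.80 to -0.04, adjusted p = 0.348 in limma), and -0.30 within the mice with 3 decimals. Nos2 had -3.50 against -0.73, -1.74 and -1.53, with a difference of -2.17 (95% interval -4.38 to 0.05, adjusted p = 0.348 in limma). That of Nos2 rests on the well with no Ct: it turned to 0.20 without O3 replicate 2 or with that well left missing. Myd88 had 1.72 against 1.33, 0.48 and -0.01, with a difference of 1.12 (95% interval -0.39 to 2.63, adjusted p = 0.460 in limma), and 0.034 within the mice with 3 decimals. Within those mice the differences of Cxcl5, Cxcl1 and Nos2 were -1.95, -4.40 and -1.78.

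**Figure D5:**
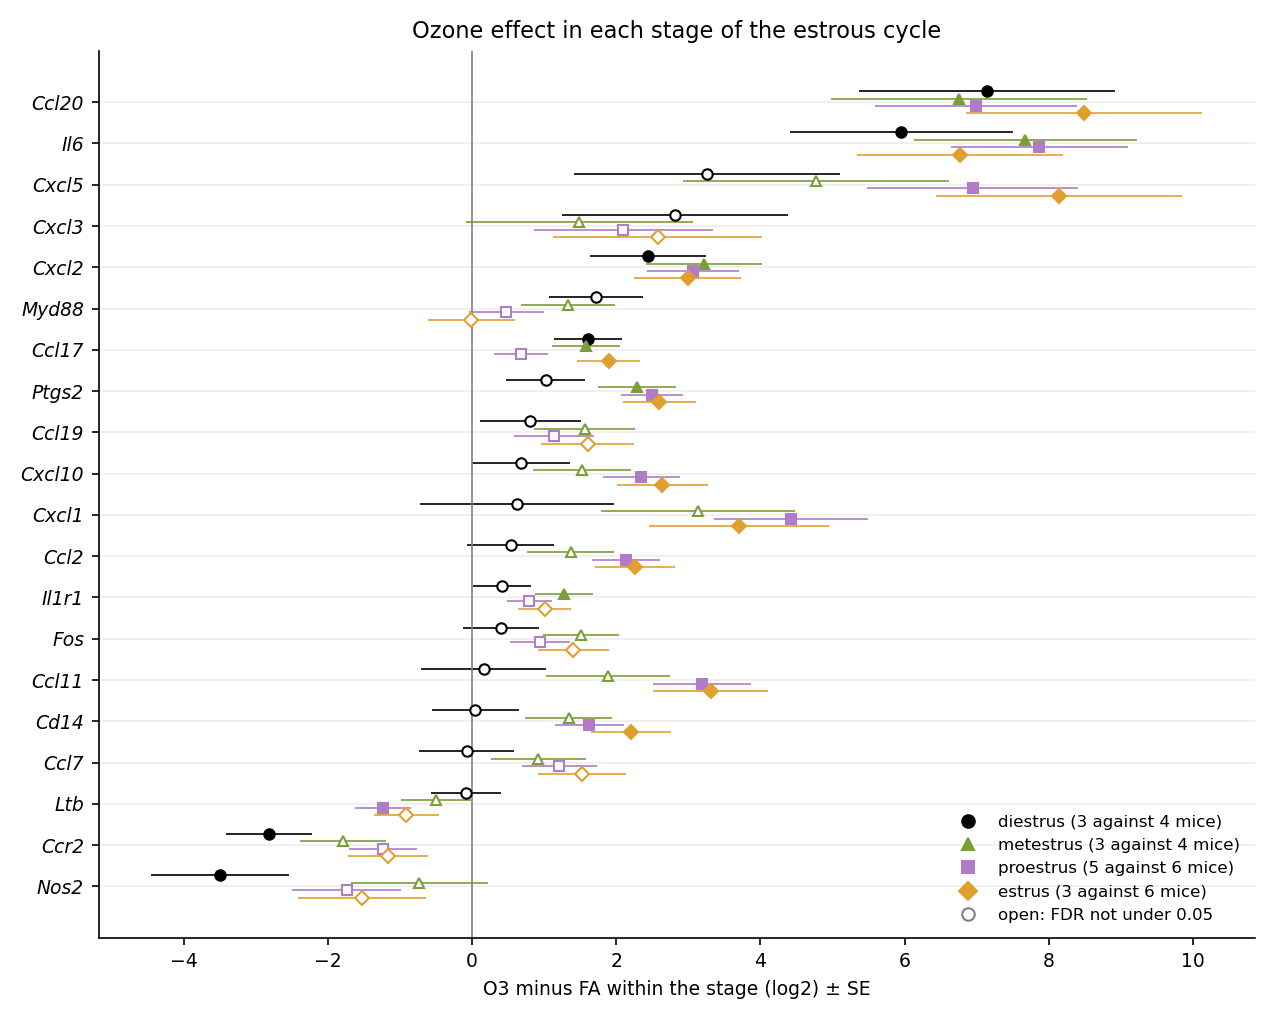
Log2 fold change of O3 against FA within each stage, ± SE, for the 20 placed genes, with filled symbols where the false discovery rate was under 0.05. The effect in diestrus (black circles) lies close to 0 for Ccl11 (0.16), Cd14 (0.05) and Ccl7 (-0.07), and it is -2.817 for Ccr2 and -3.50 for Nos2, which is -1.13 without O3 replicate 2, where Nos2 had no Ct.

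Each arm was also compared between stages. Among O3 mice, 4 wells were lower in diestrus than in the mean of the other stages (4.76%), and 20 had an unadjusted p under 0.05. Cxcl1 was the placed gene among them, lower by 3.89 on the log2 scale (a difference of -3.89, SE 1.16, adjusted p = 0.0467 in limma), and it had no Ct in 1 of the 3 O3 diestrus mice. The others were wells A7 and E1 and 1 more well with no name, and 0 wells passed with reference well H2 or H3 alone or without O3 replicate 2 of diestrus. Among FA mice, 1 well with no name was lower in diestrus (1.19%), and 4 had an unadjusted p under 0.05. No placed gene passed in the FA arm.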

How the data were processed

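RNA was extracted from whole lung homogenate, and 400 ng per mouse was reverse transcribed for the array, per the labels. The authors deposited Ct values (other: cycles, not normalized), 1 column per mouse, and linear fold changes (a ratio), which they made from the Ct values against their reference wells and 1 FA mouse. These were recomputed against FA diestrus replicate 1 with wells H1, H2, H3, H5 and a Ct of 36 where there was none: 100% of 3026 values were equal within 0.0005. Files name no genes; a well was placed where the deposited fold changes gave the difference that the study prints. 

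The -ΔCt values were fitted with limma 3.58.1 in R 4.3.3 to 34 mice in 8 groups (26 residual degrees of freedom), two-sided, with no filter. Replicates are mice. Within each diestrus group, no pair of mice had a Ct in common. Deviations of same-numbered FA and O3 mice from their group means correlated over wells with r of 0.115, 0.338 and 0.384 (every pair over 0.1, although O3 replicate 1 correlated more with FA replicate 4, at 0.345), so the replicate number was tried as a block. On simulated data for O3 against FA in diestrus (84 wells, 20 rounds), 97.6% of 340 wells changed by 4 SD were recovered and 4.6% of calls were false. The simulated noise was normal and independent between wells. Changes smaller than 4 SD and wells with no Ct were not simulated, so these shares do not apply to them. Members and gene lists were chosen with earlier results of these data known. All genes that could be placed are named, with at most 2 unnamed wells that rose and 2 that fell, by adjusted p. Alternatives were other reference wells, other treatments of wells with no Ct, a filter, a separate fit, limma's trend and robust options, the replicate block, the number format and leaving out each diestrus mouse; fits with the block in diestrus mice alone were added after the data were seen. Python 3.11.15, numpy 2.4.6, pandas 2.3.3 and matplotlib 3.10.9 were used for the rest.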

Additional observations from a re-analysis of the deposited data

Results flagged for a closer look

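In FA mice in diestrus, FA replicate 2 lay far from the other 3 mice in Cxcl10 and Il1r1 and in the 6 wells H7 to H12. The gap to the nearest mouse took a share of the whole range of 0.939 for Cxcl10, where FA replicate 2 was at -5.27 and the others at -8.08 to -7.90, and of 0.872 for Il1r1, where it was at -4.55 and the others at -5.64 to -5.50. For the Ct of the wells it was 0.915 in H7, 0.868 in H8, 0.93 in H9, 0.86 in H10, 0.952 in H11 and 0.911 in H12. Of 30 such sets examined, 8 were marked, where chance marks about 1 in 20 of independent sets. All 30 sets hold the same 4 mice, and the 8 marks are all of FA replicate 2. The sets are thus not independent, and the 8 of 30 cannot be read against 1 in 20. Without FA replicate 2, the log2 fold change was 1.35 for Cxcl10 (adjusted p = 0.161 in limma) and 0.67 for Il1r1 (adjusted p = 0.291 in limma), against 0.67 and 0.42 with it.

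Well E1, which has no gene name here, differed in its O3 effect between stages: the adjusted p in limma was 0.0234 against the mean of the other stages (a difference of -2.74) and 0.028 against proestrus (-3.04). Its log2 fold change was -2.60 in diestrus, 0.18 in metestrus, 0.44 in proestrus and -0.21 in estrus. Within the mice with 3 decimals, which include 1 O3 estrus mouse, the difference from the mean of the other stages was -2.02. With the replicate number as a block E1 passed in neither comparison (-2.69 and adjusted p = 0.0537 in limma against the mean of the other stages), and without FA replicate 4, O3 replicate 1 or O3 replicate 2 of diestrus that adjusted p was 0.114, 0.0945 and 0.300.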

How the results depend on the processing

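The 10 wells of O3 against FA in diestrus became 2 with reference well H2 alone (Ccl20 and Il6), 3 within the mice with 3 decimals, 5 without the FA diestrus mice of the other number format, 0 in a separate fit of the 7 diestrus mice and 0 with a replicate block in the diestrus mice alone. Other planned settings gave 7 to 15. Among them, the number of decimals as a term gave 12 wells, in which Ccl19, Cxcl5 and Ptgs2 passed beside the 6 placed genes named above. With the replicate block in all 34 mice the number was 14, the same 6 placed genes passed, and well E1 no longer differed between stages (adjusted p = 0.0537 in limma). Leaving out 1 diestrus mouse gave 6 to 18 wells for O3 against FA, and 0 to 1 (metestrus), 0 to 2 (proestrus, estrus and the mean of the other stages) for the differences between stages, 0 to 7 among O3 mice and 0 to 1 among FA mice.

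Other counts moved as follows. The difference from proestrus gave 0 wells with H2 or H3 alone, the replicate block, the number of decimals as a term, and in both fits restricted by number format, 2 with H5 alone and 3 with a Ct limit of 35. The difference from the mean of the other stages gave 0 with H1, H2, H3 or H5 alone, the mean Ct of the array wells, the replicate block, the number of decimals as a term and in both fits restricted by number format, and 2 with limma's trend and robust options. Among O3 mice there were 0 with H2 or H3 alone and within the mice with 3 decimals, and 16 with H5 alone. Among FA mice there were 0 with H1, H2 or H5 alone, the mean Ct of the array wells, missing values in place of no Ct, a Ct limit of 35, the number of decimals as a term, the mice with 3 decimals and a separate fit.

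Of 905 values for single genes or wells, 784 kept their direction and side of the threshold, 72 were no longer past it, 7 came past it and 42 turned. These counts do not measure robustness, because some outcomes were fixed in advance. The exact permutation test is included, and its p cannot be below 0.0571. Each gene or well past the threshold was therefore bound to count there as no longer past it. Where every mouse had a Ct, giving wells with no Ct another Ct or leaving them missing left the log2 fold change as it was. The Ct limit of 35 also changed measured Ct over 35, and well A7 moved from -3.48 to -3.33 with it. Ccr2, for example, stayed at -2.817 with such wells left missing. None of the genes that turned in diestrus was past the threshold. Ccl7 turned to 0.15 (H3 alone), 0.068 (mean Ct of the array wells), 0.39 (number of decimals as a term) and 0.44 (both fits restricted by format). Cd14 turned to -0.078 (H2 alone), -0.051 (H5 alone) and -0.14 (block, diestrus mice alone), Ccl11 to -0.26 and Ltb to 0.13 with that block, Ltb to 0.13 (H3 alone) and 0.053 (mean Ct of the array wells), and Cxcl1 to -0.13 (both fits restricted by format). Without 1 mouse, Ccl11 ranged from -0.41 to 0.91, Ccl7 from -0.60 to 0.58, Cd14 from -0.39 to 0.72, Cxcl1 from -0.53 to 2.43 and Ltb from -0.62 to 0.22. The difference of Ccl20 from the mean of the other stages turned to 0.16 (H3 alone), 0.25 (mean Ct of the array wells), 0.031 (replicate block), 1.91 (number of decimals as a term), 3.51 (mice with 3 decimals) and 3.71 (without the FA mice of the other format), with -1.73 to 1.06 without 1 mouse. That of Ccl17 turned to -0.28 (H2 alone), with -0.044 to 0.66 without 1 mouse, that of Cxcl2 ranged from -1.25 to 0.037 without 1 mouse, and that of Nos2 turned to 0.20 with wells that had no Ct left missing, with -3.47 to 0.20 without 1 mouse. The cause was not tested. The median log2 fold change over all wells was 0.00, and -0.12 with H2 alone, 0.22 with H3 alone, 0.14 with the mean Ct of the array wells and 0.40 with the number of decimals as a term.

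Levels near the limit of detection bound the sizes of Ccl20, Il6, Cxcl3, Cxcl5 and Nos2: with a Ct limit of 35 their log2 fold changes were 4.64, 3.32, 1.55, 0.10 and -1.83.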
